A study of Mus musculus with 6 samples.

Results

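The genes described are the interferon-induced transmembrane genes *Ifitm1*, *Ifitm2*, *Ifitm3* and *Ifitm6*, the lymphocyte antigen 6 genes *Ly6c2*, *Ly6a* and *Ly6e*, and *Plac8*, in bone marrow-derived macrophages (BMDMs) under high salt. They were chosen by name, as relatives and companions of genes whose difference between NaCl and control was already known from these same libraries, so that difference is a description for these 8 genes and not a test. All 8 reached the minimum of 10 counts, summed over the 6 libraries, that 15903 genes reached out of 57010 genes in the table of raw counts.

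RNA-sequencing was performed on BMDMs of 3 mice. Cells of each mouse were split into an unstimulated control and a culture given 62 mM excess NaCl over 24 h, so each group had 3 libraries. Every mouse carried the Cx3cr1GFP allele, in which GFP sits in the *Cx3cr1* locus, on the C57BL/6J strain, in both groups. The cells had been grown from marrow with 10 ng/ml M-CSF, and the adherent cells alone were sequenced. The mouse number marks the control and the NaCl library of the same animal.

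IFITM proteins are small membrane proteins that hinder the fusion of enveloped viruses with cell membranes, and IFITM3 acts chiefly in endosomes. Interferons induce several genes of the family through factors that bind interferon-stimulated response elements (ISRE) and gamma-activated sites (GAS). LY6 proteins are held in the cell membrane by a lipid anchor. Ly6C marks the inflammatory monocytes that enter injured tissue and can become macrophages there, and *Plac8* is expressed in myeloid progenitors and these monocytes.

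Total counts were 8520433, 11315918 and 20123570 in the control libraries and 8635499, 11610020 and 4088065 in the NaCl libraries of mice 1, 2 and 3. NaCl replicate 3 was thus the shallowest, and 1235 of the genes tested had no count in it. The labelled cell type was checked against macrophage genes: *Adgre1*, which encodes F4/80, lay between 1263 and 1816 CPM (read counts scaled to the TMM-adjusted library size) in the 6 libraries, and *Cd68* between 1196 and 1582 CPM. Markers of lymphocytes and NK cells summed to 12.7 CPM at most over the 3 of 10 that were tested.

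Of the 8 genes, *Ifitm3* and *Ifitm6* were higher in NaCl and passed the threshold of 0.05 (edgeR's quasi-likelihood test, adjusted by the Benjamini-Hochberg method over all genes tested), and none was lower. The same 2, both higher, were those with an unadjusted p under 0.05 in this fit and those called by DESeq2. *Ifitm6* was 10.9-fold and *Ifitm3* 5.93-fold higher. Among all genes tested, 76 were higher, which is 0.478%, and 28 were lower, which is 0.176%. The same 2 of the 8 genes passed when the mouse was entered as a block, in which case 732 genes (4.60%) were higher and 684 (4.30%) lower. With that block, *Ifitm2* and *Ly6e* also had an unadjusted p under 0.05, and neither passed after adjustment. Without the block, *Ifitm6* ranked 18 and *Ifitm3* ranked 46 by log2 fold change among the 15903 genes. The other 6 genes stayed short of the threshold in both fits, and their groups overlapped. The median log2 fold change of the 8 genes was 0.33, beside -0.006 over all genes tested.

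**Figure D1:**
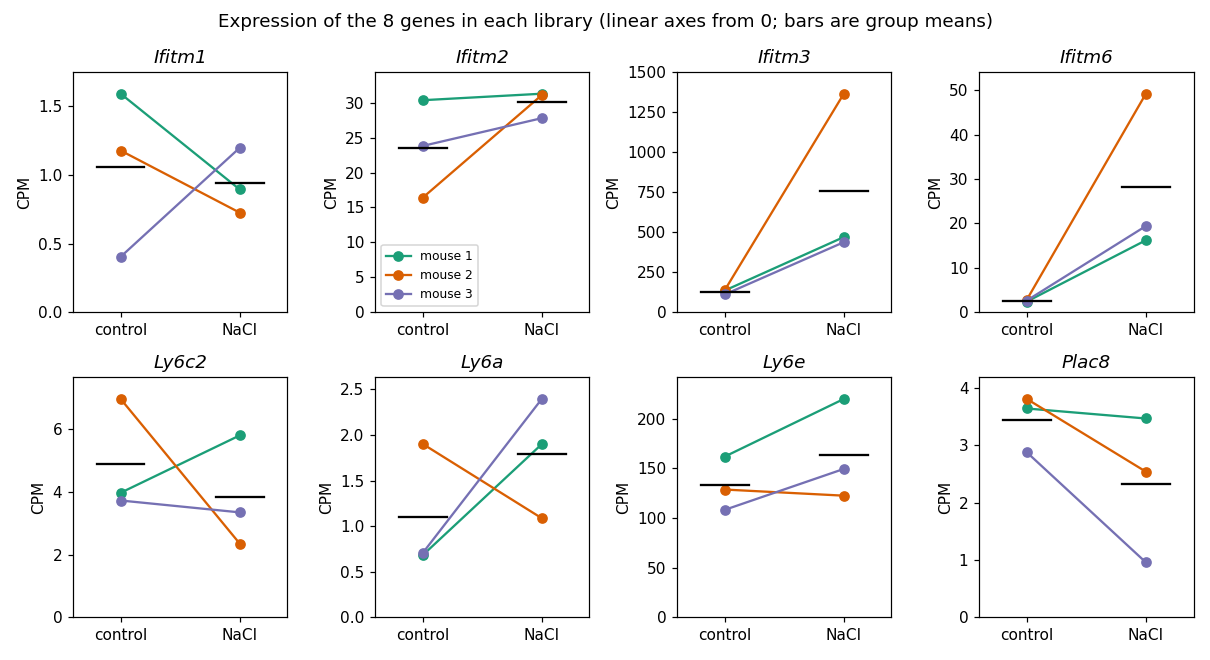
CPM of each gene on a linear axis from 0, in control and NaCl libraries, with a line joining the libraries of 1 mouse and a bar at the mean of 3. All 3 NaCl libraries lie above all 3 control libraries for *Ifitm3* and *Ifitm6*, with mouse 2 highest, and the groups overlap for the other 6 genes.

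*Ifitm3*, the family member best known for its action against viruses in endosomes, stood at 135, 138 and 111 CPM in the control libraries of mice 1, 2 and 3. In their NaCl libraries it stood at 470, 1366 and 438 CPM. Every NaCl library was above every control library, and the NaCl library of mouse 2 was far above those of mice 1 and 3. The mean was 128 ± 14.96 CPM in control and 758 ± 527 CPM in NaCl (SD, n = 3), and the fitted log2 fold change was 2.57 ± 0.40 (SE), with a 95% interval from 1.68 to 3.46. Within mice 1, 2 and 3, NaCl over control came to 1.79, 3.31 and 1.98 on the log2 scale.

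*Ifitm6*, a member of the same gene cluster, gave 2.39, 2.81 and 2.62 CPM in control and 16.2, 49.2 and 19.4 CPM in NaCl, in the order of the mice. The control libraries were close to each other, the NaCl libraries lay apart from all of them, and mouse 2 was again the highest. These values rested on 21, 31 and 52 counts in control and on 145, 543 and 81 counts in NaCl. The log2 fold change was 3.45 ± 0.42 (SE), with a 95% interval from 2.51 to 4.39, and the ratios within the mice were 2.67, 4.04 and 2.80.

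The size of both rises depended on mouse 2. Without NaCl replicate 2, the log2 fold change was 1.83 for *Ifitm3* and 2.75 for *Ifitm6*, and both still passed the threshold. Neither passed it without control replicate 2, where the values were 2.63 and 3.50, without control replicate 3, where they were 2.48 and 3.46, or without NaCl replicate 3, where they were 2.84 and 3.65. The direction was the same in all 6 of these fits.

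*Ifitm2*, which encodes another antiviral membrane protein of the cluster, gave 30.4, 16.4 and 23.8 CPM in control and 31.3, 31.1 and 27.8 CPM in NaCl. It was higher in NaCl in 3 of 3 mice, but the NaCl library of mouse 3 lay below the control library of mouse 1, and the difference did not pass the threshold. The log2 fold change was 0.36 ± 0.21 (SE; 95% interval from -0.11 to 0.83). With the mouse as a block it was 0.40 ± 0.15 (SE), with an unadjusted p of 0.017 and an adjusted p of 0.114 (edgeR). Counts for this gene are uncertain, because STAR's gene counts leave out reads that match several genes, and 42% of the 75-base windows of its transcripts also occur in other transcripts of GENCODE M21, chiefly those of *Gm45717* on the same strand. For *Ifitm3* that share was 0.662%, and for *Ifitm6* no window was shared.

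*Ifitm1*, which encodes the member found mainly at the cell surface, was close to the limit of detection, with 14, 13 and 8 counts in control and 8, 8 and 5 counts in NaCl. That is 1.59, 1.18 and 0.404 CPM in control and 0.894, 0.725 and 1.20 CPM in NaCl. It was lower in mice 1 and 2 and higher in mouse 3, so the mice differed in direction. At this depth the 95% interval of its log2 fold change, from -1.39 to 1.13, leaves a difference of either sign possible.

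**Figure D2:**
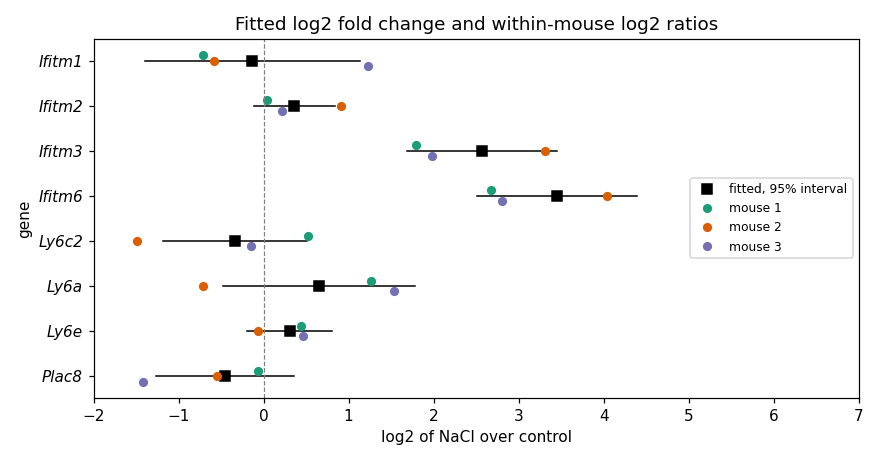
Log2 of NaCl over control for each gene, with the fitted value and its 95% interval as a square and bar (n = 3 per group) and the ratio within each mouse as a circle. The intervals are from the fit without the block. Those of *Ifitm3* and *Ifitm6* lie above 1.68 throughout, and those of the other 6 genes include 0.

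Levels were compared between genes per length, as TMM-scaled CPM per kilobase of exon (RPKM). In control, *Ifitm3* led the 8 genes at 188.7 ± 22.1 RPKM, followed by *Ifitm2* at 35.9 ± 10.7, *Ly6e* at 35.1 ± 7.15 and *Ifitm6* at 2.88 ± 0.233 (SD, n = 3). *Plac8* at 2.16, *Ly6c2* at 1.79, *Ifitm1* at 0.967 and *Ly6a* at 0.91 RPKM came last. *Ifitm2* and *Ly6e* overlapped between libraries, as did each neighbouring pair from *Plac8* downward, so their order does not stand beyond the spread. In NaCl, *Ifitm6* reached 31.2 ± 20.1 RPKM, at which its libraries overlapped those of *Ly6e* at 43.3 ± 13.3 RPKM.

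Summed over the 4 genes of the family, control libraries held 250, 232.4 and 202.9 RPKM and NaCl libraries 759.2, 2117.7 and 710.5 RPKM. *Ifitm3* made up 79.8 to 87.4% of that sum in control and 90.9 to 95.2% in NaCl. The level of *Ifitm3* was 56.3 to 75.6 times that of *Ifitm6* in control and 30.1 to 38.7 times in NaCl. On the RPKM scale, *Ifitm3* therefore accounted for most of the added family transcript, whereas *Ifitm6* gained more relative to its own starting level.

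**Figure D3:**
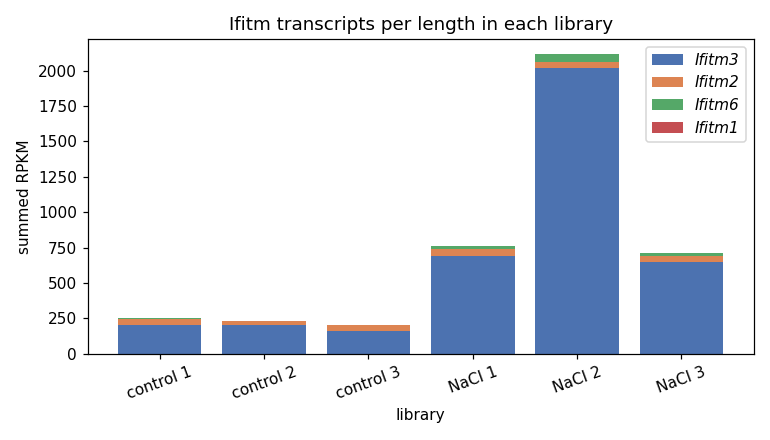
RPKM of the 4 family members stacked for each of the 6 libraries, on a linear axis from 0. *Ifitm3* forms most of every bar, and the NaCl library of mouse 2 reaches 2117.7 RPKM.

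RefSeq promoter windows, which run from 250 bases before to 50 bases after each start site, were found for 6 of the 8 genes. *Ly6a* and *Ly6e* had no entry. The windows of the 4 family members are shown because the genes lie in 1 cluster on chromosome 7 and only *Ifitm3* and *Ifitm6* of them passed the threshold. They are taken from GRCm38.p6, written 5′ to 3′ on the gene's strand, with matches to the motifs below in capitals. *Ifitm3* is at chr7:141010695-141010994 on the minus strand, *Ifitm6* at chr7:141016843-141017142 on the minus strand, *Ifitm2* at chr7:140955912-140956211 on the minus strand and *Ifitm1* at chr7:140967826-140968125 on the plus strand.
Ifitm3: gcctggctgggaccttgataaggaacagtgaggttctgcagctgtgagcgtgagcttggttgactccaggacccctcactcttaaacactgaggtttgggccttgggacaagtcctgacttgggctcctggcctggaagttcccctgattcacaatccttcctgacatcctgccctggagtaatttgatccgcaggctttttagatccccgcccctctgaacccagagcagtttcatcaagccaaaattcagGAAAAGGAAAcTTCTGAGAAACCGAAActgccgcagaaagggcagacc
Ifitm6: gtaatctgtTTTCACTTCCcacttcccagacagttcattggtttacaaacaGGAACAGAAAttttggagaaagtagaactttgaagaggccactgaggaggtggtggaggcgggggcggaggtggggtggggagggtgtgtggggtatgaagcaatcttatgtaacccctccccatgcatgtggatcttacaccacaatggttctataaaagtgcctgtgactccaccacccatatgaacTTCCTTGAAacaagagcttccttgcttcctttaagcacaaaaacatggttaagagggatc
Ifitm2: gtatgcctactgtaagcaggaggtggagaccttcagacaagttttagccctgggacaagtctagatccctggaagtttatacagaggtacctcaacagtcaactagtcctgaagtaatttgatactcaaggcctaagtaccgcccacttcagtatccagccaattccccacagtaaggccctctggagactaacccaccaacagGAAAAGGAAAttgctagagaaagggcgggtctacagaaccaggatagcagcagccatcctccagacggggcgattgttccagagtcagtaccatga
Ifitm1: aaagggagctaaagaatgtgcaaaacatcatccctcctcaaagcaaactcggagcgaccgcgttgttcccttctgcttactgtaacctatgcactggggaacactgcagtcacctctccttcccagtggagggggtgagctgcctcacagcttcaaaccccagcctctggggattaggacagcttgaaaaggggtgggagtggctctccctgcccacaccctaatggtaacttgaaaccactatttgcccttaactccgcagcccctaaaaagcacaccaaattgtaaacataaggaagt

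Both strands were searched for the ISRE core GAAANNGAAA, the GAS core TTCNNNGAA, the TonE motif bound by the osmotic stress factor NFAT5, and the PU.1-IRF composite GGAANNGAAA. The composite was added after the *Ifitm6* window had been read. The GAS core reads the same on both strands, so each match counts on both. Of 32851 mouse promoter windows of this length, 3.44% held the ISRE core, 8.3% the GAS core, 4.96% TonE and 2.72% the composite.

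Counted from 1 at the start site, the *Ifitm3* window held the ISRE core at bases 3 to 12 and 20 to 29 and the GAS core at bases 14 to 22, overlapping the latter ISRE match. In *Ifitm6* there was no match to the ISRE core. Its window held the GAS core at -10 to -2, the composite at -199 to -190, and the composite on the opposite strand at -241 to -232. *Ifitm2*, which did not pass the threshold, held an ISRE core at -46 to -37, and *Ifitm1* held no match. The windows of *Ly6c2* and *Plac8* held no match either, and TonE was found in none of the 8 windows of these genes. A match is a run of letters and not a measured binding site, and its absence concerns these 300 bases alone.

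**Figure D4:**
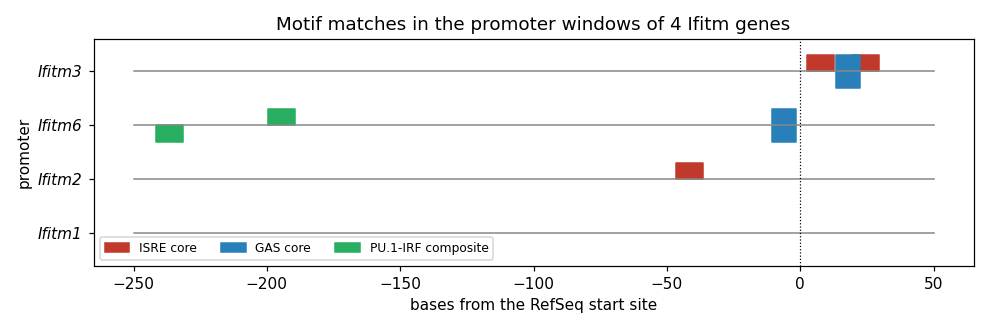
Positions of motif matches in the promoter windows of the 4 family members, in bases from the RefSeq start site (dotted line), with matches on the gene's strand above each line and on the opposite strand below. The ISRE core appears in *Ifitm3* and *Ifitm2*, the composite in *Ifitm6*, and nothing in *Ifitm1*.

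*Ly6c2*, which encodes the Ly6C antigen of inflammatory monocytes, gave 3.98, 6.98 and 3.73 CPM in control and 5.81, 2.36 and 3.35 CPM in NaCl. It was higher in NaCl in mouse 1 and lower in mice 2 and 3, and the groups overlapped. The log2 fold change was -0.34 ± 0.38 (SE; 95% interval from -1.19 to 0.52). Of its 75-base windows, 9.46% also occur in *Ly6c1*, which had 1 count over the 6 libraries.

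*Ly6a*, which encodes the stem cell antigen Sca-1, rested on 6, 21 and 14 counts in control and 17, 12 and 10 counts in NaCl. Its levels were 0.682, 1.90 and 0.706 CPM in control and 1.90, 1.09 and 2.40 CPM in NaCl, higher in mice 1 and 3 and lower in mouse 2. The groups overlapped, and the 95% interval of the log2 fold change of 0.65 ran from -0.48 to 1.78, which is too wide at these counts to show a rise or a fall.

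*Ly6e*, a widely expressed member that also hinders the entry of some viruses, was the most abundant LY6 gene of the 3. It gave 162, 129 and 108 CPM in control and 219.9, 123 and 149 CPM in NaCl, with overlapping groups. The log2 fold change of 0.30 ± 0.22 (SE; 95% interval from -0.19 to 0.80) rested on 624 counts or more per library. Its interval was narrower than those of *Ly6c2* and *Ly6a*. With the mouse as a block, the log2 fold change was 0.28 ± 0.12 (SE), with an unadjusted p of 0.035 and an adjusted p of 0.18 (edgeR).

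*Plac8* gave 3.64, 3.80 and 2.88 CPM in control and 3.46, 2.54 and 0.958 CPM in NaCl. It was lower in 3 of 3 mice, but the NaCl library of mouse 1 lay within the control range, and the lowest value, in NaCl replicate 3, stood on 4 counts. The log2 fold change was -0.45 ± 0.36 (SE; 95% interval from -1.27 to 0.36).

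The 2 genes called were also those whose NaCl libraries all lay above the control libraries. Such a separation was seen in 1418 genes (8.92%) upward and in 1611 (10.1%) downward over all genes tested, so the separation alone is not particular to *Ifitm3* and *Ifitm6*. In bulk RNA, fewer or more cells of a type cannot be told apart from less or more RNA per cell.

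The rest of the families was read from lists written with earlier results known. Of the other IFITM genes, *Ifitm10* alone was tested, with a log2 fold change of 0.04, *Ifitm5* had 7 counts in all and *Ifitm7* none. Of 32 other LY6 and uPAR genes, 8 were tested and none passed without the block, although 2 had an unadjusted p under 0.05, *Plaur* and *Ly6a2*. With the block, and with DESeq2, *Plaur*, the urokinase receptor, fell from 155 ± 29.0 to 93.7 ± 14.6 CPM (SD, n = 3; log2 fold change -0.73, adjusted p = 0.00019 with the block and 0.117 without, edgeR). *Ly6a2*, next to the LY6 members on chromosome 15, gave 1.18 ± 0.236 CPM in control and 0.453 ± 0.107 CPM in NaCl and passed in neither fit, and *Cd59a*, an inhibitor of complement, gave 10.8 and 11.1 CPM.

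The neighbours of both loci were read as well. Of the 5 tested genes on each side of the IFITM cluster, 0 of 10 passed without the block, and their log2 fold changes lay between -0.46 and 0.74. The highest, *Pgghg*, was the 1 gene with an unadjusted p under 0.05, and it passed with the block and with DESeq2. Around the 3 LY6 genes, 0 of 10 passed without the block or with DESeq2, at -1.35 to 0.59, and 2 had an unadjusted p under 0.05. Of those, *Zfp41* passed with the block at 0.53 and *Ly6a2* did not. The log2 fold changes of *Ifitm3* and *Ifitm6* were thus larger than those of all genes around their cluster, and *Ifitm1* and *Ifitm2* lay in the range of these neighbours.

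*Ifitm3* is itself a classical interferon-stimulated gene, so 38 other genes of that kind were counted. None passed without the block, beside 0.478% of all genes that were higher. Unadjusted p was under 0.05 for 7 of the 38, beside 2010 of all 15903, and DESeq2 called 2, *Ifit1* and *Usp18*. The log2 fold change was positive for 30 of the 38 and negative for 8. Its median over the 38 was 0.22, beside -0.006 over all genes tested and 2.57 for *Ifitm3*. The highest of the 38 was 1.65, for *Ifit3b*, which passed in neither fit. With the block, 6 rose and 1 fell, beside 4.60% and 4.30% of all genes. Those that rose were *Ifit1* at 1.11, *Isg20* and *Ifit3* at 1.02, *Usp18* at 1.02, *Ifit2* at 0.77 and *Cmpk2* at 0.76 (log2 fold change without the block), of which the *Ifit* genes encode proteins that bind viral RNA and *Usp18* restrains interferon signalling. The gene that fell was *Ifi27l2a*, at -0.49.

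*Ifit1* serves as an example of the scale: 4.66, 7.16 and 3.48 CPM in control and 14.2, 10.9 and 6.95 CPM in NaCl. Its NaCl value was highest in mouse 1. That of *Usp18*, at 13.9, 15.05 and 6.71 CPM, was highest in mouse 2, as were those of *Ifitm3* and *Ifitm6*. Within mice 1, 2 and 3, however, NaCl over control for *Usp18* came to 1.44, 1.05 and 0.19 on the log2 scale. It was thus largest in mouse 1, as for *Ifit1*, at 1.57, 0.59 and 0.96. The ratios of *Ifitm3* and *Ifitm6* were largest in mouse 2, at 3.31 and 4.04. The interferon genes *Ifnb1*, *Ifna4* and *Ifng* had no count in these libraries. Of 19 tested genes for interferon ligands, receptors and signalling, 0 passed without the block, 3 had an unadjusted p under 0.05 and DESeq2 called 2, *Ifnar1* and *Usp18*. With the block 3 passed. These were *Usp18* and *Socs3*, a feedback inhibitor of cytokine receptors, which rose, and *Ifnar1*, a chain of the type I interferon receptor, which fell from 207 ± 2.86 to 122 ± 22.9 CPM (SD, n = 3; log2 fold change -0.77, adjusted p = 0.00011 with the block and 0.0579 without, edgeR).

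For *Ly6c2* and *Plac8*, the companions are the other 20 markers of inflammatory monocytes. Of these, 1 passed without the block: *Lyz2*, which encodes lysozyme, rose from 9818 ± 524 to 19148 ± 3609 CPM (SD, n = 3; log2 fold change 0.96, adjusted p = 0.0424, edgeR). DESeq2 called *Lyz2* and *S100a4*. With the block, *Fn1*, *S100a4* and *F13a1* rose too, which makes 4 of 20 beside 4.60% of all genes, and none fell. The median of the list was 0.04, and the summed level, most of it *Lyz2*, ran from 11505.9 to 12681.7 CPM in control and from 19105.7 to 25728.5 CPM in NaCl. *Ccr2*, the chemokine receptor that defines these monocytes with Ly6C, was chosen for naming after its values were seen. It gave 211, 83.3 and 98.2 CPM in control and 258, 38.7 and 99.2 CPM in NaCl, with overlapping groups. Its NaCl value was higher in mouse 1, lower in mouse 2 and nearly equal in mouse 3.

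**Figure D5:**
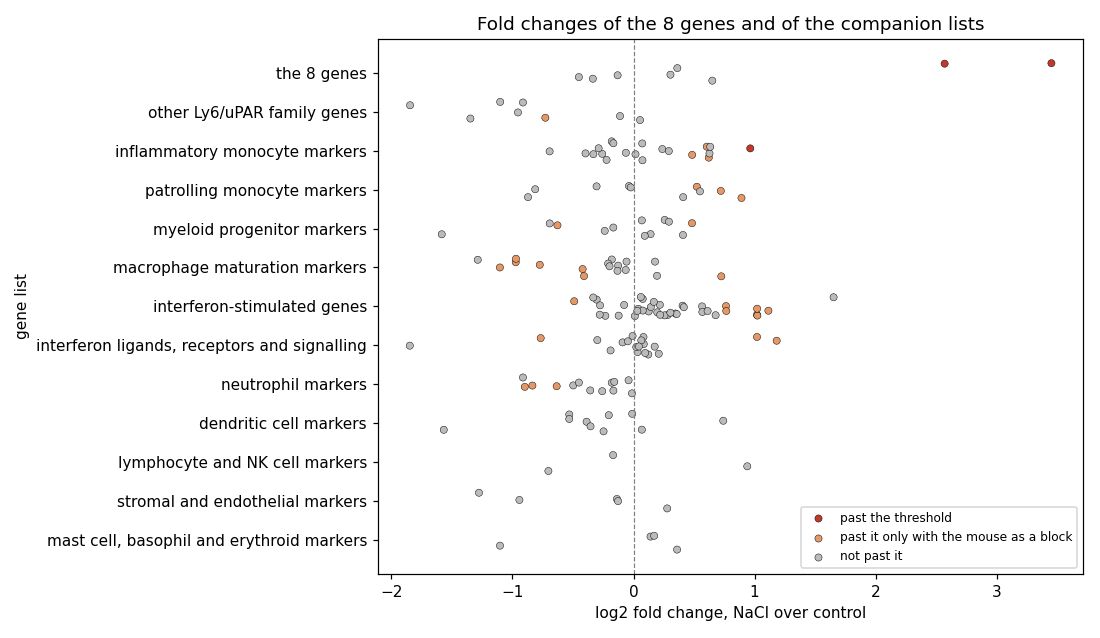
Log2 fold change (NaCl over control, edgeR without the block) of the 8 genes and of each tested gene of the companion lists drawn. Colour shows whether a gene passed the threshold without or only with the block. The list of other IFITM genes, of which *Ifitm10* alone was tested, is not drawn. *Ifitm3* at 2.57 and *Ifitm6* at 3.45 lie to the right of all other genes drawn, and *Lyz2* at 0.96 is the only other gene past the threshold without the block.

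In the lists for other cells and stages, 0 genes passed without the block. Unadjusted p was under 0.05 for 3 of 10 patrolling monocyte, 1 of 12 progenitor and 6 of 17 macrophage maturation markers. The same held for 3 of 13 neutrophil and 1 of 3 lymphocyte and NK cell markers. Over all 15903 genes tested, 2010 had such a p. The patrolling monocyte markers among these were *Cx3cr1* and *Spn*, which were higher, and *Treml4*, which was lower at -0.87. The progenitor marker was *Ms4a3*, lower at -1.58, with 0.90 CPM in control and 0.28 CPM in NaCl. Of the patrolling monocyte markers, 5 had a positive and 5 a negative log2 fold change, and of the progenitor markers 7 and 5. DESeq2 called *Cx3cr1*, *Csf1r* and *Mertk*, beside 245 genes higher and 157 lower over all genes. With the block, which called 4.60% of all genes higher and 4.30% lower, 3 of 10 patrolling monocyte markers rose (*Spn*, *Cx3cr1* and *Itgal*), and of 12 myeloid progenitor markers *Cd34* rose and *Mpo* fell. Of 17 macrophage maturation markers, *Csf1r*, the receptor for M-CSF, rose and 6 fell, among them *Vsig4*, *Mrc1*, *Mertk*, *Maf* and *C1qc*. *Csf1r* went from 2083 ± 148 to 3443 ± 369 CPM, and *Mertk*, a receptor for apoptotic cells, from 93.4 ± 19.2 to 47.3 ± 16.1 CPM (SD, n = 3). *Cx3cr1* is the locus that carries GFP in these mice.

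Of 13 neutrophil markers, *Csf3r*, *Lcn2* and *Ngp* fell with the block, beside 4.30% of all genes, and none rose, and the summed level was 387.8 to 682.6 CPM in control and 382.8 to 478.8 CPM in NaCl. None of 10 dendritic cell markers passed in either fit, nor did the 3 lymphocyte and NK cell, 5 stromal and endothelial, or 4 mast cell, basophil and erythroid markers that were tested. The summed levels of these last 3 lists stayed at or below 12.7 CPM in every library, and *Cd3e* and *Ncr1* had no count. The part of cell composition in the rise of *Ifitm3* and *Ifitm6* was not tested.

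The genes most like a member were ranked by Pearson's r of log2 CPM over the 6 libraries, among 12000 genes with a mean of at least 1 CPM. Since all 6 libraries carry the difference between NaCl and control, r is a description with no p. For *Ifitm6* they were *Lyz2* (r = 0.995), *Marveld1* (0.994), *Cdkn2d* (0.994), *Hspa1a* (0.993) and *Cntrob* (0.993), and *Ifitm3* ranked 17 at 0.986. Pearson's r does not weigh the size of a change. The log2 fold changes of these 5 genes were 0.96, 1.37, 0.73, 3.17 and 0.72, against 3.45 for *Ifitm6*. *Hspa1a* had a mean of 0.522 CPM in control. A further measure of how common such values were is that 144 other genes exceeded 0.95 with *Ifitm6*.

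The genes most like *Ly6a*, which had 6 to 21 counts per library, were *Samd10* (0.990), *Gigyf2* (0.960), *Il7* (0.953), *Mtrf1l* (0.937) and *Gm15459* (0.929), and 3 genes exceeded 0.95. For *Plac8* they were *Rdh14* (0.997), *Prtn3* (0.995), *Bri3* (0.992), *Ccdc85c* (0.992) and *Rsph3b* (0.991), and 89 genes exceeded 0.95. *Prtn3*, which encodes proteinase 3 of myeloid progenitors and neutrophils, gave 3.57 CPM in control and 1.98 CPM in NaCl. Both *Plac8* and *Prtn3* were lowest in NaCl replicate 3, the shallowest library, with 4 and 2 counts. Their log2 CPM there were 0.20 and -0.58, and r without that library was not computed.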

How the data were processed

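PolyA RNA of control and NaCl-treated BMDMs from 3 mice was sequenced as 75 bp single-end reads. Per the submitters' processing notes, fastp 0.20.0, STAR 2.7.10b, SAMtools 1.16.1 and DESeq2 1.40.2 were used with mm10. The study names GENCODE vM32, which belongs to another build. The authors deposited a raw count for each gene and library, and a normalized signal in which each count was divided by the DESeq2 size factor of its library. Genes were counted with the gene count mode of STAR, which leaves out reads that map to several places or overlap several genes.

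Raw counts were tested here with edgeR 4.0.16 (glmQLFit and glmQLFTest, TMM, total count of at least 10, no further term). Benjamini-Hochberg adjustment covered all 15903 genes, at 0.05. CPM used TMM-scaled library sizes, log2 CPM used a prior count of 2, and the SE was derived from the quasi-likelihood F. Exon lengths and shared windows came from GENCODE M21, in which 15486 genes tested (97.4%) were found by identifier, and promoter windows from RefSeq.

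The labels give the same mouse number to a control and a NaCl library, and the deviations of such pairs from their group means correlated across genes at 0.43, 0.15 and 0.22, against -0.35 to 0.12 for other pairs. The libraries were thus taken as paired by mouse, and values from a replicate block for mouse stand beside results whose call it changes.

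The 8 genes, the gene lists and the tests were chosen with earlier results of these data known. Named are the 8 genes, other IFITM and LY6 genes with a mean of at least 1 CPM, up to 6 genes per further list with the largest fold change among those past the threshold in either fit, the 5 genes most like *Ifitm6*, *Ly6a* and *Plac8*, and 5 neighbours on each side of a locus. *Ifitm5*, *Ifitm7*, *Ifitm10*, *Ly6c1*, *Ifi27l2a*, *Ifit3b*, *Adgre1*, *Cd68*, *Ccr2*, *Treml4*, *Ms4a3* and genes without counts were named after their values were seen.

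Alternatives were DESeq2 1.42.0, the replicate block, median-ratio size factors, total scaling, other count minimums, limma-voom (limma 3.58.1), thinning to 4088065 counts, and leaving out each library. The fits were tested on simulated data. R 4.3.3, Python 3.11.15, pandas 2.3.3, numpy 2.4.6 and matplotlib 3.10.9 were used.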

Additional observations from a re-analysis of the deposited data

How the results depend on the processing

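The 76 genes higher and 28 lower became 732 and 684 with the replicate block, 245 and 157 with DESeq2, 452 and 354 with DESeq2 and the block, 362 and 300 at a minimum total count of 1, 47 and 15 after thinning, and 505 and 407 with thinning and the block. Leaving out 1 library gave 8 to 129 higher and 0 to 54 lower. *Ifitm3* and *Ifitm6* passed the threshold in every alternative but the leave-one-out fits, where 0 to 2 of the 8 genes passed. There, *Ifitm3* ranged from 1.83 to 2.84 and *Ifitm6* from 2.75 to 3.75 on the log2 scale, each past the threshold in 3 of 6 fits. Genes of the companion lists past the threshold numbered 1, and 29 with the block, 9 with DESeq2, 21 with DESeq2 and the block, 2 with total scaling, 21 at a minimum total count of 1, 2 with limma-voom, 21 with thinning and the block, and 0 to 5 without 1 library. The cause of these shifts was not tested. The sign changed for 2 genes of low count: *Ifitm1* was at 0.19 with limma-voom and between -0.61 and 0.28 without 1 library, and *Ly6c2* was between -0.83 and 0.003 without 1 library. *Ly6a* kept its sign, but its size moved. It was 0.65 without the block, 1.78 after thinning, 1.81 with thinning and the block, and 0.36 to 1.28 without 1 library. *Ly6a* passed the threshold in none of these fits. The block changed no call among the 8 genes. With 3 libraries per group and 4088065 counts in the shallowest, values of *Ifitm1*, *Ly6a* and *Plac8* rested on 4 to 57 counts per library. Whether the libraries of 1 group came from separate cultures beyond separate mice is not given in the sources used here.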
